A study of Mus musculus with 24 samples.

Results

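The proteasome genes were described here across T cells before and after transfer into mice with acute graft-versus-host disease. The members were the gene probes whose name in the scanner files began with Psma, Psmb, Psmc, Psmd or Psme and a digit, which gave 44 genes on 56 probes among the 39429 gene probes of the array. Of these, 38 genes on 44 probes had a signal above background in at least 1 group and were tested, among 9417 tested genes in all. Psma8, Psmb11, Psmd11, Psmd14 and Psme4 did not reach that signal, nor did Psmc3ip, which matches the name rule but is a recombination cofactor and no proteasome subunit.

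The groups were CD8+ T cells recovered 4 days after transplantation from blood, liver, lung and small intestine (5 arrays each), and they were set against CD8+ T cells taken from the graft on day 0 (4 arrays). All T cells carried the OT-I receptor transgenes, which recognise an ovalbumin peptide on MHC class I, and the CD45.1 allele, while the rest of the graft and the recipients carried CD45.2. Recipients were female Act-mOVA mice aged 8 to 16 weeks, a C57Bl/6 line with ovalbumin driven by a CAG promoter in most tissues, and they had received 11 Gy of total body irradiation in 2 fractions before bone marrow and splenocytes from OT-I donors. The cells were pulled out with CD45.1 antibody and magnetic beads rather than sorted, they carry a single T cell receptor, and 300 pg of RNA per sample went through 2 rounds of amplification. The labels number the samples of a group but do not say whether each came from its own animal, so each p-value speaks only of the spread among the samples at hand, which may be technical.

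The proteasome is the cell's main protease for ubiquitin-tagged proteins and the source of most peptides shown on MHC class I. Its core is a stack of rings of alpha and beta subunits, and 3 of the beta subunits are proteases: Psmb5 cuts after hydrophobic residues, Psmb6 after acidic and Psmb7 after basic ones. Interferon-exposed and many immune cells replace them with Psmb8, Psmb9 and Psmb10, which make the immunoproteasome. The regulatory particle adds ATPases (Psmc genes) that unfold the substrate and non-ATPase subunits (Psmd genes) that bind and strip ubiquitin, and the Psme genes encode activators that cap the core without ATP.

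The probes of the paired catalytic subunits are 60 bases long and target different stretches, which bears on every comparison of Psmb8, Psmb9 and Psmb10 with their counterparts. In the best placement without gaps, the probe of Psmb8 and the probe that stands for Psmb5 had 21 identical bases over 57, those of Psmb9 and Psmb6 had 21 over 54, and those of Psmb10 and Psmb7 had 23 over 56. A second Psmb5 probe is closer to the Psmb8 probe, with 31 identical bases over 50 and no shared run longer than 8 bases. That pair is shown with the identical bases in capitals, from the scanner files, on build mm9 at chr17:34337771-34337830 (plus strand) for Psmb8 and chr14:55233161-55233220 (minus strand) for Psmb5.
Psmb8: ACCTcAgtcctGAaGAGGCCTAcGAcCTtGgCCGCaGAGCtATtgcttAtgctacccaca
Psmb5: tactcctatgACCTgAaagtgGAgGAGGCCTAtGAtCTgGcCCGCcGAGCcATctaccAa
The only Psme3 probe, at chr11:101184289-101184348 (mm9, plus strand), is unlike the other members' probes in composition. It holds 31 TG or GT steps out of 59, against 2 to 16 in the 55 other member probes and a median of 8 over the array, and 0.134% of the array's probes hold as many. Bases 22 to 51 of it are shown with the TG and GT steps in capitals.
Psme3: acaTGTGTGTGTGTGTtcGTGTGTGTGTGT

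RefSeq promoter windows of build GRCm38.p6, which run from 250 bases before a gene's start to 50 after it, were matched for 36 of the 43 subunit genes by symbol. The stretches before the start of the 3 immunoproteasome genes are shown, because their levels did not move together, with matches to 4 short motifs in capitals: the IRF element GAAANNGAA, the GAS element TTCNNNGAA, the NRF1 element TGANNNNGC and the CCAAT box CCAAT, each searched on both strands. They lie at chr17:34197945-34198194 (plus strand) for Psmb8, chr17:34187331-34187580 (minus strand) for Psmb9 and chr8:105938393-105938642 (minus strand) for Psmb10.
Psmb8: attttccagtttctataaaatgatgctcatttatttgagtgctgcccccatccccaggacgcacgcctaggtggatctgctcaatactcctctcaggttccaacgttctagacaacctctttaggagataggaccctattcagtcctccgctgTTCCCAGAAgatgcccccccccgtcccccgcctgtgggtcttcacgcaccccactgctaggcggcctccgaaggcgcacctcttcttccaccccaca
Psmb9: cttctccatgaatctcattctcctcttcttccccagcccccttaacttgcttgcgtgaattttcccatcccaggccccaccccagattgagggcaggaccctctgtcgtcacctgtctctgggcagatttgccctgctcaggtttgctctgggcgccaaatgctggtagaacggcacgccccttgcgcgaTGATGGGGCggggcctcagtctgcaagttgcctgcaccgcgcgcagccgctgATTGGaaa
Psmb10: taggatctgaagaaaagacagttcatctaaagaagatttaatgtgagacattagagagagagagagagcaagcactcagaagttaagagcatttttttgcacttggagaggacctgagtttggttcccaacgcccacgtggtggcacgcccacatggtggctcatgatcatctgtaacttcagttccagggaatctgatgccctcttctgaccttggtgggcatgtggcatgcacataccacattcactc
The capitals in Psmb8 are 1 GAS match, which is found on both strands. Its window also holds an NRF1 match outside the printed stretch, at bases 24 to 32 after the start. Psmb9 holds 1 NRF1 match and 1 CCAAT box in reverse, and its window shares 275 of 300 bases with that of Tap1, the peptide transporter gene that starts on the other strand. None of these letters occurs in the Psmb10 stretch. Over the 36 matched genes, the NRF1 element stood in 21 (58.3%) and the CCAAT box in 14 (38.9%), against 41.3% and 37.4% of 32851 RefSeq windows. The IRF element stood in 6 (16.7%) and the GAS element in 2 (5.56%), against 8.56% and 8.30% of all windows. A member gene counted when any of its windows matched, and the 36 genes had 39 windows. This can raise their shares against those of single windows. A match is a description of the letters and no evidence of binding.

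All 7 T cell markers on the array were well above background on every array, with a summed level of 189 to 637 times the 75th percentile of an array on day 4 and 239 to 391 in the graft. Markers of other cells differed between the groups: the 8 B cell genes summed to 2.92 to 26 on day 4 against 240 to 307 in the graft, the 8 neutrophil and monocyte genes to 35.1 to 196 against 375 to 483, and the 8 dendritic cell and MHC class II genes to 30.2 to 331 against 245 to 279. The 8 macrophage genes summed to 2.20 to 145 on day 4 against 13.9 to 52.7, and the 5 lung epithelial genes to 0.97 to 170 against 2.23 to 2.81. On day 4, the B cell genes Ms4a1, Pax5 and Spib were above background on none of the arrays. The part of these cells in the differences below was not tested, and in bulk RNA fewer cells of a type and less RNA per cell cannot be told apart. The graft arrays shared 1 slide that held no day 4 array and was scanned on another day. In any comparison with the graft, the difference between the groups therefore cannot be told apart from that of slide and scan day. The share of probes above background ran from 22.6% to 38.6% over the 24 arrays. The fourth lung and the fourth intestinal arrays correlated least with their groups among lung and intestinal arrays (mean r 0.892 and 0.827), with the fifth intestinal array close at 0.833. Without the first pair, 24 members were called higher and 3 lower over day 4, as with them, and 20 and 3 in both lung and small intestine. Of all genes, 38.1% were then higher over day 4, 29.7% in lung and 27.6% in small intestine. Those called lower were 2094, 1219 and 1434 of 9507 genes in that order.

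Under the main scaling, to the 75th percentile of an array's gene probes, most of the core and regulatory particle was higher on day 4 than in the graft. This did not hold on scaling to detected probes, for which the counts are given below. Averaged over the 4 sites, 24 of the 38 tested members were higher and 3 lower in limma with Benjamini-Hochberg adjustment over all tested genes, where 34.4% of all genes were higher and 19.0% lower (53.4% called either way). The members' median difference was 0.70 on the log2 scale, against 0.23 over all tested genes. The 3 lower members were Psmb10, Psmd13 and Psme3. The 24 include Psmc3, whose probes were called in opposite directions, and Psmd10, which was above background on no graft array. By the test, 16 members were higher at all 4 sites and the same 3 were lower, against 17.4% and 7.34% of all genes. Psmd10 is among the 16, although its signal bounds the fold only at 1.02 in lung and gives no bound in small intestine. Levels throughout are log2 signals relative to the 75th percentile of the array's gene probes, so a level of one probe cannot be set against that of another.

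**Figure D1:**
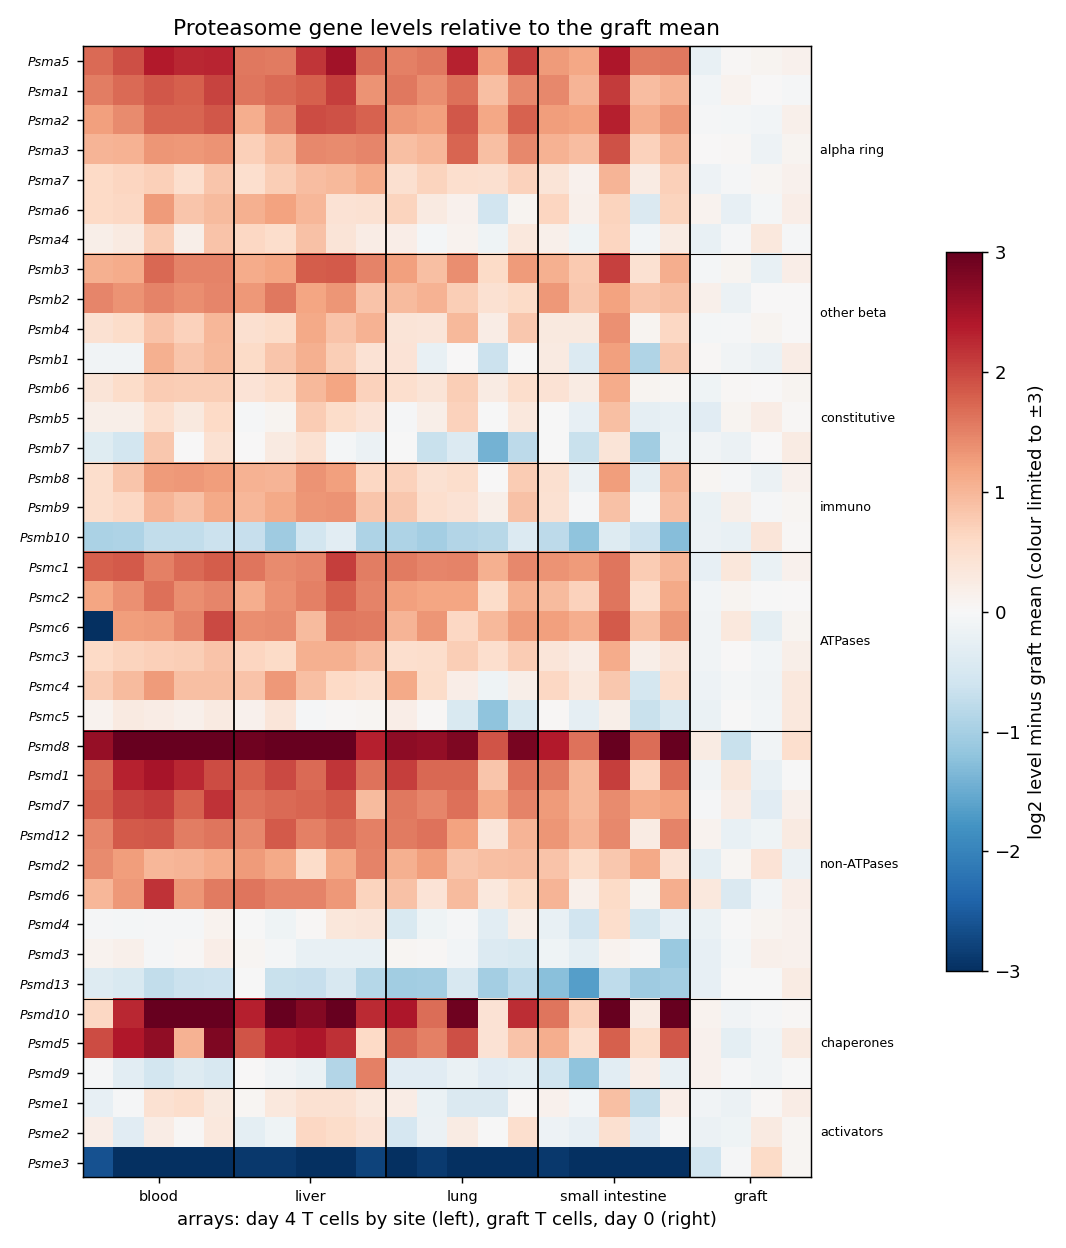
Each row is a tested proteasome gene and each column an array, grouped by site with the graft at the right, and the colour is the log2 level minus the graft mean, limited to 3 in either direction. Most rows are red at every day 4 site, while Psmb10, Psmd13 and Psme3 are blue, and the first blood array stands alone in Psmc6.

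The number of calls depended on how arrays were scaled. Of all called genes 64.4% were higher under the main scaling, against 71.1% with normexp background correction, 50.3% with quantile normalization, 40.9% with scaling to detected probes' 75th percentile and 36.5% with centring on detected probes' median. The median of all genes moved with it, at 0.29, -0.05, -0.18 and -0.32 in the same order. The members called higher numbered 24, 20, 15 and 14 under those 4 alternatives and the members called lower 3, 5, 6 and 10. Of all genes, 36.7%, 27.1%, 22.9% and 21.9% were higher in the same order. Those called lower were 1401, 2520, 3115 and 3588 of 9417 genes. The members' median stood above that of all genes by 0.47 under the main scaling, by 0.53 with normexp and by 0.45 with quantile normalization. The scalings to detected probes subtract 1 constant per array and leave that gap as it is by construction. It was 0.23 among the 32 members and 4708 genes that were well above background on all 24 arrays.

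**Figure D2:**
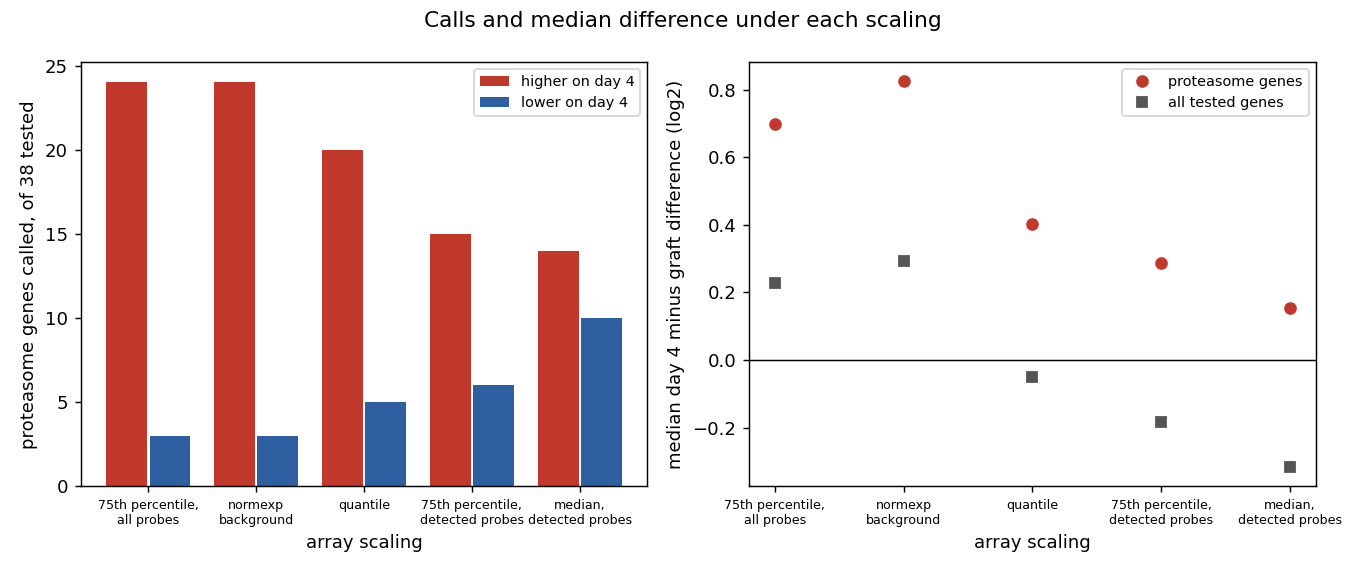
The left panel gives the number of proteasome genes called higher (red) or lower (blue) on day 4 than in the graft under 5 array scalings, and the right panel the median day 4 minus graft difference of the proteasome genes (red circles) and of all tested genes (grey squares). The calls shift from 24 higher and 3 lower to 14 and 10, and both medians shift down with them. The gap between circle and square is the same by construction in the settings that subtract 1 constant per array.

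In the alpha ring, which gates the entrance to the core, 6 of 7 genes were higher on day 4, with a median difference of 1.18. This count and those of the subcomplexes below stand against 34.4% of all genes higher and 19.0% lower. Among them, Psma1, Psma2, Psma3 and Psma5 had differences over 1 with 20 of 20 day 4 arrays above every graft array. Separation of that kind was not counted over all genes, here or below. Psma5 had the largest difference of the ring: its level was at 4.98, 5.23, 5.67, 5.54 and 5.58 in blood, at 4.87, 4.85, 5.44, 5.81 and 4.96 in liver, at 4.80, 4.86, 5.59, 4.53 and 5.36 in lung and at 4.57, 4.45, 5.72, 4.84 and 4.87 in small intestine, against 3.06, 3.32, 3.36 and 3.42 in the graft. The groups did not overlap, and the difference was 1.84 (SE 0.22, limma adjusted p = 5.5e-07). Psma4 had the smallest difference and lay at 1.45, 1.54, 2.05, 1.45 and 2.14 in blood, at 1.89, 1.81, 2.15, 1.66 and 1.49 in liver, at 1.48, 1.21, 1.38, 1.15 and 1.59 in lung and at 1.44, 1.16, 1.92, 1.20 and 1.51 in small intestine, against 1.05, 1.24, 1.59 and 1.24 in the graft. Its groups overlapped and it was not called (difference 0.30, adjusted p = 0.142 in limma). Under 2 of 38 alternatives Psma4 was called higher, and its difference ran from -0.24 to 0.41 over all of them. Psma6 was called at 0.53 (adjusted p = 0.044 in limma) but not in the majority of alternative settings.

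Of the 4 beta subunits that are not proteases, Psmb2, Psmb3 and Psmb4 were higher on day 4. Psmb3 was at 5.61, 5.64, 6.25, 6.03 and 6.02 in blood, at 5.66, 5.73, 6.36, 6.37 and 6.02 in liver, at 5.76, 5.43, 5.92, 5.12 and 5.81 in lung and at 5.60, 5.32, 6.60, 4.99 and 5.63 in small intestine, against 4.48, 4.62, 4.31 and 4.75 in the graft. This was a difference of 1.26 (SE 0.22, limma adjusted p = 5.52e-05) with no overlap. Psmb1 was at 2.49, 2.47, 3.65, 3.42 and 3.57 in blood, at 3.15, 3.42, 3.66, 3.31 and 3.02 in liver, at 2.99, 2.36, 2.59, 1.93 and 2.59 in lung and at 2.85, 2.18, 3.83, 1.69 and 3.39 in small intestine, against 2.63, 2.48, 2.41 and 2.82 in the graft. All 5 liver arrays lay above the graft, lung and intestinal arrays spread to both sides of it, and the gene was not called (0.34, limma adjusted p = 0.322).

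The 3 immunoproteasome subunits went in different directions. Psmb8 and Psmb9 were 1.70-fold and 1.67-fold higher on day 4, and Psmb10 was 1.74-fold lower. Psmb8, which takes the place of Psmb5, was at 4.70, 5.01, 5.45, 5.48 and 5.44 in blood, at 5.21, 5.20, 5.52, 5.41 and 4.80 in liver, at 4.85, 4.64, 4.69, 4.19 and 4.92 in lung and at 4.65, 4.00, 5.42, 3.88 and 5.22 in small intestine, against 4.24, 4.15, 4.00 and 4.30 in the graft. All blood and liver arrays lay above every graft array, while 1 lung array and 2 intestinal arrays did not. The difference was 0.76 over day 4 (SE 0.23, limma adjusted p = 0.00808).

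Psmb9, which takes the place of Psmb6, was also called in blood and liver alone. It was at 5.14, 5.23, 5.63, 5.49 and 5.75 in blood, at 5.62, 5.75, 5.94, 5.97 and 5.46 in liver, at 5.44, 5.13, 5.05, 4.80 and 5.51 in lung and at 5.08, 4.58, 5.50, 4.57 and 5.55 in small intestine, against 4.43, 4.79, 4.58 and 4.68 in the graft. There were 2 intestinal arrays that reached into the range of the graft and the other 18 day 4 arrays lay above it (difference 0.74, SE 0.19, limma adjusted p = 0.00236). Both genes were called in blood (1.04 for Psmb8 and 0.83 for Psmb9) and liver (1.06 and 1.13), and in neither lung (0.49 and 0.56) nor small intestine (0.46 and 0.44). No difference between sites was called for either gene, the smallest adjusted p in limma being 0.129 for Psmb8 and 0.116 for Psmb9. The day 4 calls of both were lost with quantile normalization (0.34 and 0.36, adjusted p = 0.18 and 0.122 in limma), on scaling to detected probes (0.35 and 0.33) and on centring on them (0.22 and 0.20).

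Psmb10, which takes the place of Psmb7, was at 5.23, 5.27, 5.44, 5.44 and 5.53 in blood, at 5.49, 5.11, 5.63, 5.88 and 5.25 in liver, at 5.25, 5.16, 5.29, 5.35 and 5.78 in lung and at 5.40, 4.98, 5.79, 5.57 and 4.89 in small intestine, against 6.00, 5.97, 6.55 and 6.21 in the graft. All 20 day 4 arrays lay below every graft array. The difference was -0.80 (SE 0.18, limma adjusted p = 0.000711), with site differences between -0.86 in small intestine and -0.71 in liver. It kept its call on day 4 under each of 38 alternative settings, and in blood and liver it lost it with normexp background correction (-0.38 and -0.45). The B cell and neutrophil sums given above were also lower on every day 4 array than on any graft array, and the dendritic cell sum overlapped; their part was not tested.

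**Figure D3:**
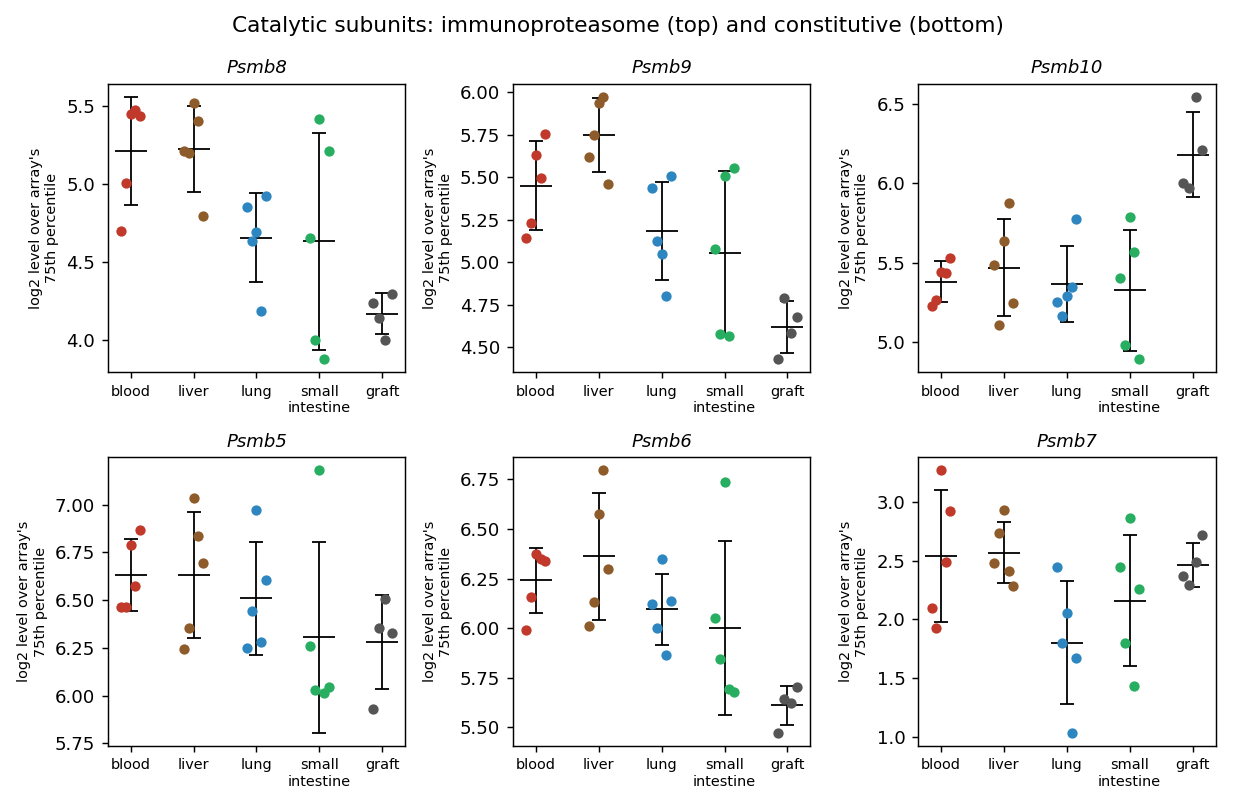
Each point is an array, the bar is the group mean and the whisker 1 SD, and the y axis is the log2 level over the array's 75th percentile, with its own range in each panel. Psmb10 lies below all graft points at every site, Psmb8 and Psmb9 lie above them in blood and liver, and Psmb5 and Psmb7 overlap the graft.

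Of the constitutive subunits, Psmb6 was the only one called by the probe that stands for it. Its level was at 5.99, 6.16, 6.37, 6.35 and 6.34 in blood, at 6.01, 6.13, 6.57, 6.79 and 6.30 in liver, at 6.12, 6.00, 6.35, 5.87 and 6.14 in lung and at 6.05, 5.85, 6.74, 5.69 and 5.68 in small intestine, against 5.47, 5.65, 5.62 and 5.70 in the graft. It was higher by 0.56 (SE 0.18, limma adjusted p = 0.0105) with 2 intestinal arrays inside the range of the graft, and the call was lost under both scalings to detected probes (0.15 and 0.02). Psmb7 was at 2.10, 1.92, 3.26, 2.49 and 2.92 in blood, at 2.48, 2.74, 2.93, 2.41 and 2.28 in liver, at 2.45, 1.80, 2.06, 1.04 and 1.67 in lung and at 2.45, 1.80, 2.86, 1.43 and 2.26 in small intestine, against 2.36, 2.29, 2.49 and 2.72 in the graft. The groups overlapped, 4 of 5 lung arrays lay below the graft, and the gene was not called over day 4 (difference -0.20, 95% interval -0.72 to 0.33). It was called lower with quantile normalization, at -0.72 (adjusted p = 0.00493 in limma).

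Psmb5 depended on the probe. The brighter probe, which stands for the gene, was at 6.47, 6.47, 6.79, 6.57 and 6.87 in blood, at 6.25, 6.35, 7.03, 6.83 and 6.69 in liver, at 6.25, 6.45, 6.97, 6.28 and 6.60 in lung and at 6.26, 6.03, 7.18, 6.01 and 6.05 in small intestine, against 5.93, 6.35, 6.51 and 6.33 in the graft. Its groups overlapped and the difference of 0.24 was not called (95% interval -0.17 to 0.65). The second probe, printed above beside that of Psmb8, averaged 4.50 ± 0.47 on day 4 (SD, n = 20) and 3.64 ± 0.15 in the graft (SD, n = 4). Its difference was 0.86, and it was called (limma adjusted p = 0.00104).

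Over the 6 catalytic genes, the change of the immunoproteasome subunits differed from that of the constitutive ones by less than the spread between arrays. The mean change of Psmb8, Psmb9 and Psmb10 from the graft, minus that of Psmb5, Psmb6 and Psmb7, was 0.03 ± 0.20 over the day 4 arrays (SD, n = 20). It was 0.01 ± 0.12 for blood, 0.09 ± 0.18 for liver, 0.06 ± 0.26 for lung and -0.02 ± 0.25 for small intestine (SD, n = 5 each), and the graft arrays had an SD of 0.07 (n = 4). With the second Psmb5 probe, an alternative chosen after the values were seen, the day 4 value was -0.17.

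The 3 pairs behind that mean did not agree in direction. Psmb8 minus Psmb5 was 0.52 ± 0.39 over day 4 and Psmb9 minus Psmb6 was 0.18 ± 0.31, while Psmb10 minus Psmb7 was -0.60 ± 0.56 (SD, n = 20 each). With the second Psmb5 probe, Psmb8 minus Psmb5 was -0.10 ± 0.20 (SD, n = 20), and between -0.14 in blood and -0.04 in lung by site. These values are descriptions, since the pairs and probes were chosen with the results known.

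**Figure D4:**
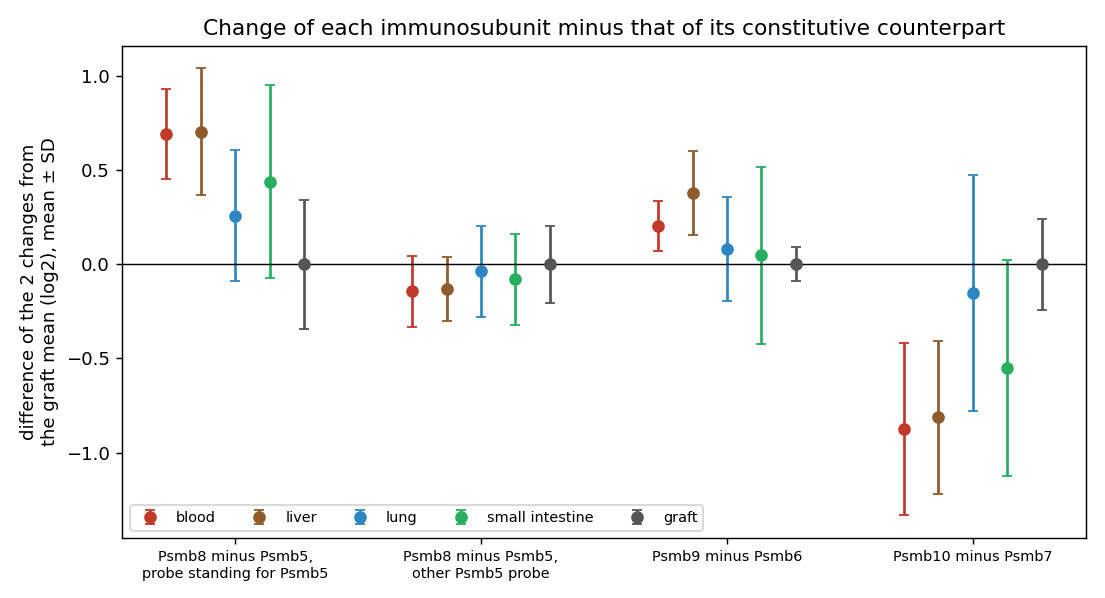
Points are group means and whiskers 1 SD of the change from the graft mean of an immunoproteasome subunit minus that of its constitutive counterpart, in log2 units, for the 4 sites and the graft. Psmb8 minus Psmb5 lies at 0.26 to 0.70 at the sites with the probe that stands for Psmb5 and at -0.14 to -0.04 with the other, and Psmb10 minus Psmb7 lies below 0 at all 4.

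Among the 6 ATPases, Psmc1, Psmc2 and Psmc4 were higher on day 4, and Psmc3 was by 1 of its probes and lower by the other. Psmc1 had the largest difference and lay at 6.33, 6.37, 6.03, 6.23 and 6.33 in blood, at 6.13, 5.95, 5.98, 6.59 and 6.06 in liver, at 6.08, 5.98, 6.02, 5.60 and 5.97 in lung and at 5.86, 5.79, 6.14, 5.29 and 5.52 in small intestine, against 4.27, 4.86, 4.32 and 4.65 in the graft. There was no overlap (1.49, SE 0.17, limma adjusted p = 1.62e-07). A second Psmc1 probe was well above background on 19 day 4 arrays and on no graft array, so it had passed the signal filter through day 4 arrays alone. Its bound, at least 5.52-fold higher on day 4, is a larger change than that of the brighter probe. Why the probes differ was not tested. Psmc5 had the lowest difference, -0.07, which was not called (95% interval -0.48 to 0.33). Under 3 of 38 alternatives it was called lower, and its difference ran from -0.62 to 0.07 over all of them. It was at 3.77, 3.94, 3.89, 3.82 and 3.93 in blood, at 3.80, 4.02, 3.62, 3.70 and 3.73 in liver, at 3.85, 3.71, 3.20, 2.46 and 3.21 in lung and at 3.71, 3.38, 3.83, 2.99 and 3.20 in small intestine, against 3.46, 3.65, 3.58 and 3.97 in the graft, and its lowest array was the fourth of lung. Psmc6 was not called either (1.06, limma adjusted p = 0.0996), and 1 array decided this. Its blood levels were -2.08, 2.58, 2.61, 2.82 and 3.31, against 1.23, 1.63, 1.03 and 1.42 in the graft, and without the first blood array the day 4 difference was 1.30 (limma adjusted p = 6.45e-06).

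Psmc3 was the member whose probes went in opposite directions, each of them called. The probe that stands for it averaged 5.92 ± 0.27 on day 4 and 5.27 ± 0.12 in the graft, and the other averaged 2.56 ± 0.40 on day 4 and 3.12 ± 0.20 in the graft (SD, n = 20 and 4). The differences were 0.66 (limma adjusted p = 0.00138) and -0.56 (limma adjusted p = 0.0108). The direction of Psmc3 therefore cannot be given from this array, and it is counted above by its brighter probe.

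Of 9 tested non-ATPase subunits, 6 were higher on day 4, Psmd13 was lower, and Psmd3 and Psmd4 were not called. Psmd8, a lid subunit, had the largest positive difference among the probes that stand for the members: it was at 2.35, 2.94, 3.51, 3.34 and 2.83 in blood, at 2.67, 2.83, 2.98, 3.72 and 2.08 in liver, at 2.42, 2.39, 2.55, 1.63 and 2.58 in lung and at 2.11, 1.38, 2.99, 1.41 and 3.07 in small intestine, against -0.01, -0.92, -0.36 and 0.25 in the graft. It was 7.19-fold higher on day 4 with no overlap (2.85, SE 0.31, limma adjusted p = 1.04e-07), and 3 of the 4 graft arrays had it well above background. The other 5 were the scaffold subunits Psmd1 (1.74) and Psmd2 (1.01) and the lid subunits Psmd6 (1.00), Psmd7 (1.55) and Psmd12 (1.38).

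Psmd13, also a lid subunit, went the other way. It was at 1.93, 1.84, 1.58, 1.67 and 1.70 in blood, at 2.29, 1.63, 1.61, 1.83 and 1.46 in liver, at 1.26, 1.29, 1.82, 1.29 and 1.55 in lung and at 1.06, 0.66, 1.54, 1.24 and 1.29 in small intestine, against 2.07, 2.30, 2.30 and 2.56 in the graft. Of 20 day 4 arrays, 19 were below every graft array (-0.78, SE 0.17, limma adjusted p = 0.000561). The exception was 1 liver array at 2.29. Psmd4, a ubiquitin receptor, differed by -0.07 (95% interval -0.42 to 0.29) and Psmd3 by -0.12 (-0.49 to 0.24), and both were called lower on scaling to detected probes' 75th percentile (-0.48 and -0.53) and on centring on their median (-0.61 and -0.67).

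**Figure D5:**
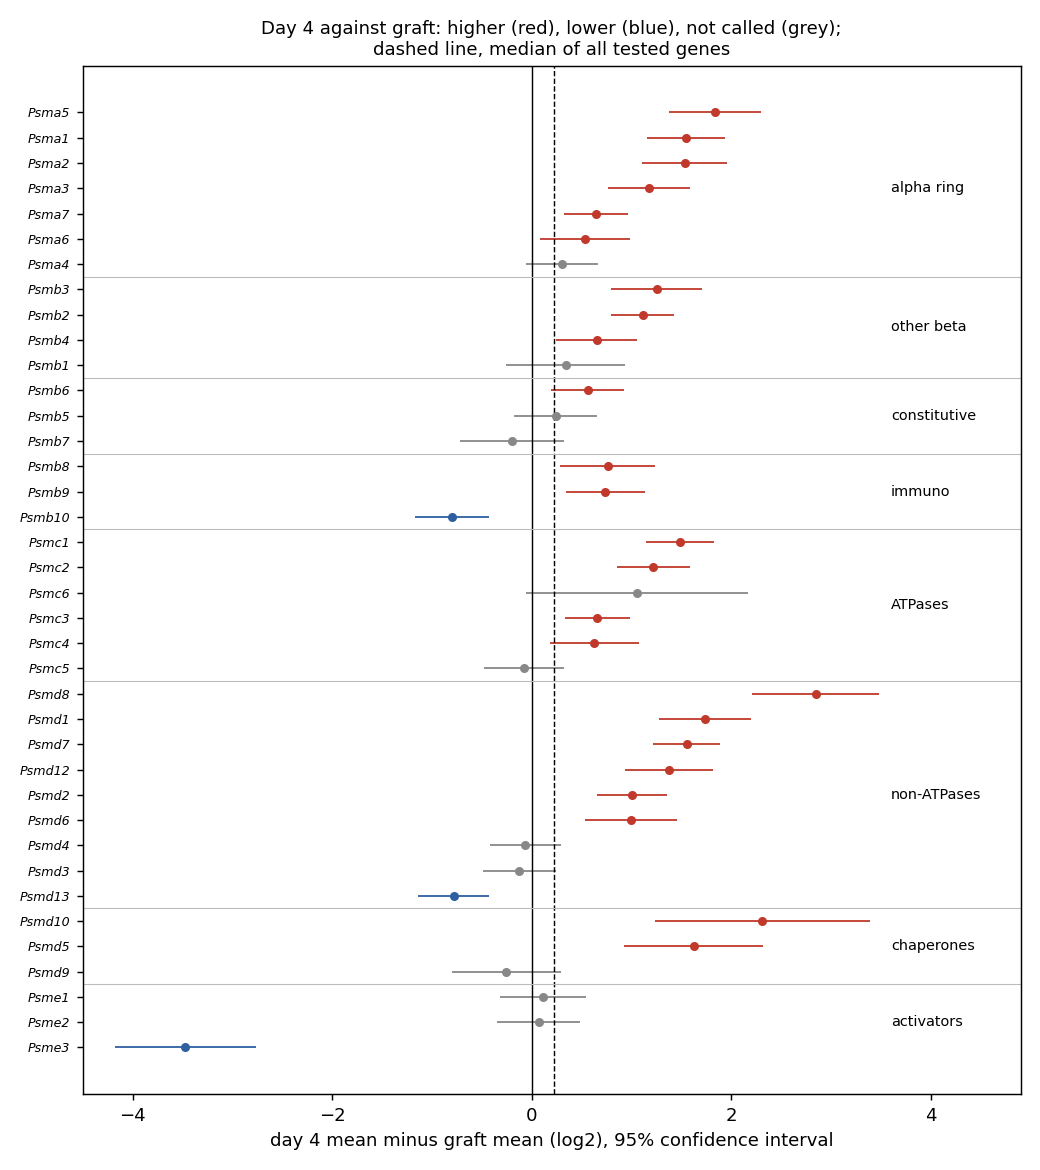
Each point is the day 4 mean minus the graft mean of a tested gene in log2 units with its 95% confidence interval, by subcomplex from top to bottom, in red where higher, blue where lower and grey where not called. The dashed line marks the median of all tested genes at 0.23, and Psme3 at -3.47 and Psmd8 at 2.85 are the extremes.

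Psmd5, Psmd9 and Psmd10 help assemble the regulatory particle's base and leave it before the proteasome is complete. Psmd5 was at 1.72, 2.16, 2.40, 0.80 and 2.54 in blood, at 1.63, 2.08, 2.17, 1.95 and 0.34 in liver, at 1.45, 1.26, 1.67, 0.19 and 0.59 in lung and at 0.85, 0.26, 1.54, 0.29 and 1.61 in small intestine, against -0.12, -0.55, -0.35 and 0.02 in the graft. All day 4 arrays lay above the graft (1.62, SE 0.34, limma adjusted p = 0.000337). Psmd10 was at -2.00, -0.34, 0.95, 0.95 and 0.45 in blood, at -0.27, 0.50, 0.13, 1.27 and -0.37 in liver, at -0.18, -0.94, 0.31, -2.18 and -0.39 in lung and at -1.01, -1.90, 0.52, -2.36 and 0.85 in small intestine, against -2.50, -2.72, -2.66 and -2.58 in the graft. It was well above background on 14 of 20 day 4 arrays and on no graft array, so its difference has only a bound, at least 1.33-fold, and it had passed the signal filter through day 4 arrays alone. Psmd9 was at 0.77, 0.49, 0.26, 0.42 and 0.32 in blood, at 0.82, 0.70, 0.61, -0.06 and 2.33 in liver, at 0.48, 0.47, 0.61, 0.46 and 0.51 in lung and at 0.21, -0.39, 0.50, 1.01 and 0.59 in small intestine, against 0.95, 0.78, 0.71 and 0.81 in the graft. It was not called (-0.25, limma adjusted p = 0.424), and its highest level was on the fifth liver array. Under 3 of 37 alternatives Psmd9 was called lower, and its difference ran from -0.80 to -0.04 over all of them. In the list of 10 assembly chaperones that includes these 3, 4 of 8 tested were higher on day 4 against 34.4% of all genes. They were Psmd5, Psmd10, Psmg3 (0.96) and Pomp (0.48), the factor that matures the beta ring. Psmg3 and Pomp were not followed under the other scalings.

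Of the activators, Psme1 and Psme2, which form the interferon-inducible cap, were not called and Psme3 was far below the graft. Psme1 was at 5.42, 5.65, 6.13, 6.19 and 5.97 in blood, at 5.74, 5.99, 6.13, 6.13 and 5.99 in liver, at 5.90, 5.47, 5.25, 5.23 and 5.71 in lung and at 5.80, 5.60, 6.59, 4.94 and 5.86 in small intestine, against 5.58, 5.51, 5.71 and 5.90 in the graft. Its groups overlapped (0.11, 95% interval -0.32 to 0.54). Psme2 was at 5.97, 5.43, 6.00, 5.80 and 6.10 in blood, at 5.49, 5.63, 6.39, 6.33 and 6.19 in liver, at 5.27, 5.59, 6.01, 5.76 and 6.27 in lung and at 5.63, 5.52, 6.25, 5.43 and 5.77 in small intestine, against 5.59, 5.63, 6.04 and 5.83 in the graft, again with overlap (0.07, 95% interval -0.34 to 0.48). A second Psme2 probe gave -0.39 over day 4, which was not called, and was called lower in lung (-0.94, limma adjusted p = 0.0231). By the probes that stand for the genes, both were called lower over day 4 on centring on detected probes' median, at -0.43 and -0.48, and under no other alternative run.

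Psme3 encodes the nuclear activator, and its change was the largest in size among the probes that stand for the members. Its level was at 3.22, 2.72, 1.07, 1.54 and 2.71 in blood, at 2.92, 2.92, 1.64, 1.34 and 3.05 in liver, at 2.31, 2.96, 1.86, 2.24 and 2.22 in lung and at 2.94, 2.67, 1.88, 2.39 and 2.48 in small intestine, against 5.23, 5.78, 6.40 and 5.89 in the graft. All 20 day 4 arrays lay below every graft array, by 11.1-fold on average (-3.47, SE 0.34, limma adjusted p = 2.56e-08), and the site differences ran from -3.57 to -3.35. The value rests on the TG-rich probe printed above, and no second probe for the gene was on the array. What that probe binds in these samples was not tested.

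The rest of the pathway was described with lists that hold other genes of protein breakdown and class I peptide supply. Their counts on day 4 stand against 34.4% of all genes higher and 19.0% lower. The genes of these lists were not followed under the other scalings, so their calls hold for the main scaling. Of 9 tested ubiquitin receptors, deubiquitinases and cofactors, 3 were higher on day 4: Usp14 (1.86), a deubiquitinase on the proteasome, Ubqln1 (1.25), a shuttle, and Akirin2 (0.95), which brings proteasomes into the nucleus. Of 6 tested genes of the p97 unfoldase and its cofactors, Faf1 (3.28, well above background on 2 of 4 graft arrays) and Nploc4 (0.86) were higher. Of 5 tested ubiquitin and E1 genes, Uba1 (1.80), the main ubiquitin-activating enzyme, was higher. The members of these 3 lists that were not called ranged from -0.48 to 0.93.

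The 6 tested regulators of proteasome genes gave 2 higher and 1 lower, against 34.4% and 19.0% of all genes. Mafg (1.04), a partner of the NRF factors, and Nlrc5 (1.04), the transactivator of class I genes, were higher, and Irf1 (-1.02), which drives the immunoproteasome genes after interferon, was lower on day 4 than in the graft (limma adjusted p = 0.000504, 0.0277 and 0.00256 in that order). Irf1 lay below every graft array on 18 of 20 day 4 arrays. Of 13 tested genes of the class I peptide pathway after the proteasome, 6 were higher and 2 lower, against the same shares. The aminopeptidase Lap3 (3.91, well above background on 1 of 4 graft arrays) and the tripeptidyl peptidase Tpp2 (2.06) and the bleomycin hydrolase Blmh (1.74) had the smallest adjusted p among those higher, and the peptide transporter Tap2 (-1.29) and the class I heavy chain H2-K1 (-0.48) were lower. In small intestine against blood, the members of these lists that were called were Nfe2l2 (1.95, limma adjusted p = 0.0181), which encodes a stress-response transcription factor, higher, and Tpp2 (-0.89, limma adjusted p = 0.0419) and the aminopeptidase Npepps (-0.98, limma adjusted p = 0.0472), lower.

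By site, blood had 24 members higher and 3 lower than the graft, where 35.3% and 21.2% of all genes were called (56.5% either way), and liver had 25 and 3, where 34.4% and 15.9% were (50.4%). Lung had 17 higher and 3 lower, against 25.8% and 11.6% of all genes (37.4%), and small intestine 16 and 3, against 22.1% and 12.7% (34.8%). The median member differences were 0.84 for blood, 0.96 for liver, 0.56 for lung and 0.48 for small intestine, and those of all genes were 0.29, 0.34, 0.19 and 0.09. The gaps were smaller among the 32 members and 4708 genes well above background on all 24 arrays. The members' medians were then 0.77, 0.84, 0.52 and 0.44 in the same order, and those of all genes 0.47, 0.54, 0.42 and 0.25. On scaling to detected probes' 75th percentile the counts were 17 higher and 3 lower in blood, 15 and 4 in liver, 8 and 8 in lung and 11 and 4 in small intestine. Of all 9417 genes, 26.4%, 20.5%, 14.6% and 15.1% were then higher and 2790, 2818, 2505 and 1945 lower, in that order. On centring on detected probes' median the counts were 15 and 6 in both blood and liver, 12 and 8 in lung and 13 and 5 in small intestine. Of all genes, 23.5%, 19.8%, 16.3% and 16.2% were then higher and 3421, 3308, 2491 and 2229 lower. The third intestinal array stood above its group by a median of 0.59 over the members, and the fourth stood below by 0.40. The T cell marker sum ran from 189 to 637 in small intestine, against 397 to 552 in liver, and the intestinal epithelial sum from 1.29 to 224, against 1.38 to 14.4 in liver. The lung epithelial sum ran from 2.84 to 170 in lung, against 1.36 to 2.31 in liver, and the part of these cells was not tested.

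Between the sites, 2 differences were called among the 38 members and 6 pairs, both in small intestine against blood, where 11.5% of all genes were lower and 1.79% higher (13.3% either way). Psmd7, the lid partner of the proteasome's own deubiquitinase, was at 3.99, 3.70, 4.15, 3.86 and 3.92 in small intestine, against 4.52, 4.75, 4.83, 4.50 and 4.89 in blood. The groups did not overlap (-0.77, SE 0.19, limma adjusted p = 0.0154), and all 5 within-slide differences were negative, from -1.05 to -0.53. Psmd6 was at 0.56, -0.31, 0.12, -0.37 and 0.62 in small intestine, against 0.54, 0.83, 1.71, 0.87 and 1.09 in blood (-0.88, SE 0.26, limma adjusted p = 0.0318), and its within-slide differences ran from -1.59 to 0.02. With the slide as a block the adjusted p in limma was 0.0332 for Psmd7 and 0.0456 for Psmd6. Psmd7 lost its call under 4 of 40 alternatives, with an adjusted p of up to 0.102 in limma, and Psmd6 under 10 of 39, with up to 0.12. Both lost it under the scalings to detected probes, with only the groups compared and without the second intestinal array. Psmd7 remained higher than in the graft in small intestine (1.20).

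No member was called in the other 5 pairs in limma. At an unadjusted p under 0.05 there were 11 lower in lung than in blood, where 37.7% of all genes passed that p in either direction. There were 9 lower in lung than in liver (17.9% of all genes), 7 lower in small intestine than in liver (22.9%), 1 lower in liver than in blood (3.22%) and 0 between small intestine and lung (8.52%). After adjustment, 0.711% of all genes were called lower and 0.818% higher in lung against blood (1.53% either way). In lung against liver 0.0956% were called lower and 0.361% higher (0.457%), and in small intestine against lung 0.265% and 0.106% (0.372%). In liver against blood and small intestine against liver it was 0.00%. In lung against liver all 38 members had a difference below 0, with a median of -0.33, where 60.8% of all genes were below 0 and their median was -0.20. That count belongs to the main scaling and was not made under the others. Subtracting another constant per array moves members and all genes alike, so it can change the count. On centring on detected probes' median, the median of all genes against the graft was -0.36 in liver and -0.31 in lung. Under the main scaling it was 0.34 and 0.19. The number of site calls ran from 0 to 16 when 1 array was left out: it was 16 without the third intestinal array, 11 without the fifth, 9 without the first lung array, 6 without the fifth liver array and 4 without the fourth lung array. It was 0 without the second intestinal array, and 1 without any of blood replicates 2, 3 and 5. Site calls over all genes were not counted in these runs, so the counts cannot be set against a share.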

How the data were processed

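Whole-genome expression of mouse CD8+ T cells was measured on 24 one-colour Agilent arrays of 60-base probes, from 20 day 4 samples (5 of each site) and 4 graft samples. Each deposited scanner file gives, per the file headers, spot intensity after Agilent Feature Extraction's background subtraction (gProcessedSignal). The headers name version 9.5.1.1 and the submitters' processing notes 10.7. A deposited value table, in log2, matched quantile-normalised, probe-centred log2 processed intensity on every array (lowest r 0.99998) and served as an alternative.

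Control, non-uniform and outlier spots were left out and spots of a probe averaged. On the log2 scale, the 75th percentile of an array's gene probes was subtracted from each of its intensities. On average 29.9% of the probes were well above background, so scaling to detected probes was an alternative, printed beside the main counts. A probe was tested when it had a symbol (updated through RefSeq accessions, GRCm38.p6) and was well above background on all or all but 1 arrays of a group. The brightest probe stood for a gene. limma 3.58.1 in R 4.3.3 fitted 5 group means over the 24 arrays, with 11 contrasts and a threshold of 0.05 on the Benjamini-Hochberg adjusted p over all 9417 genes. A fold called "at least" sets the bright group's mean against the lowest signal above background, or the probe's own if higher.

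Members, lists, motifs and tests were chosen with earlier results of these data known. Named genes were the 6 catalytic subunits, the activators, the highest and lowest of each subcomplex, members called against the majority, members with conflicting probes, called site differences, and up to 3 called genes of each list with those against its majority. Psmc6 and the other uncalled or remaining members were named after their values were seen.

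Each slide with day 4 arrays held 1 array of each site, all with the same replicate number, so number and slide coincide there. Same-numbered samples of 2 sites correlated at -0.37 to 0.56 in their deviations from group means, with 18 of 30 pairs over 0.1, so the number was not taken as pairing samples. The number of arrays limits the precision.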

Additional observations from a re-analysis of the deposited data

Results flagged for a closer look

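Over the 38 tested members and 5 groups, 12 of 190 sets of arrays held 1 array whose gap to its nearest neighbour was large for the range of the group, by Dixon's test. Chance gives about 1 in 20 such sets. Of them, 4 came from the third intestinal array, which was high for Psma2 (6.86, others 5.62 to 5.84), Psma3 (7.04, others 5.83 to 6.18), Psmb5 (7.18, others 6.01 to 6.26) and Psmc3 (6.37, others 5.44 to 5.64). A further 3 came from the fourth lung array, which was low for Psmc1 (5.60, others 5.97 to 6.08), Psmc2 (4.64, others 5.14 to 5.32) and Psmd8 (1.63, others 2.39 to 2.58). That array had 23.9% of its probes above background, against 28.3% on the third intestinal one.

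The largest gap was Psmc6 on the first blood array, at -2.08 where the other 4 lay between 2.58 and 3.31. Psmc1 was high on the fourth liver array (6.59, others 5.95 to 6.13) and Psmd7 low on the fifth (3.68, others 4.35 to 4.57). Psmd4 was high on the fifth blood array (6.11, others 5.95 to 5.97), and Psma2 on the fourth graft array (4.70, others 4.46 to 4.50).

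Small intestine differed from blood, by the test of that difference, in Psmd6 (-0.88, limma adjusted p = 0.0318) and Psmd7 (-0.77, limma adjusted p = 0.0154).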

How the results depend on the processing

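Of the 38 tested members, 18 kept their call or lack of one for day 4 against the graft under every one of the 37 or 38 alternatives run for them. Leaving out 1 array at a time gave 22 to 25 higher and 3 lower for day 4, 24 to 25 and 2 to 3 for blood, 24 to 26 and 2 to 3 for liver, 15 to 20 and 3 to 4 for lung, 13 to 19 and 3 for small intestine, and 0 to 16 site calls. Of all genes, 28.4% to 36.9%, 31.1% to 37.0%, 29.5% to 36.4%, 20.4% to 28.1% and 17.6% to 26.3% were higher in the same order. Those called lower numbered 1455 to 2003, 1592 to 2126, 1235 to 1652, 911 to 1236 and 957 to 1333 of 9422 to 9756 genes. The mean shift of the immunoproteasome subunits against the constitutive ones was 0.01 to 0.06 over these runs, and -0.17 with the second Psmb5 probe.

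Members called lower numbered 5 for day 4, lung and small intestine with quantile normalization and with the deposited table, and 1 in blood and liver with normexp. Of all 9417 genes, 2520, 1723 and 1796 were lower with quantile normalization and 2517, 1722 and 1795 with the deposited table, in that order. With normexp 1667 were lower in blood and 1097 in liver. Centring on detected probes' median gave 14 higher and 10 lower for day 4, 15 and 6 for blood and for liver, 8 lower for lung and 5 for small intestine. Scaling to their 75th percentile gave 15 higher and 6 lower for day 4, 15 higher for liver, and 8 and 8 for lung. The calls over all genes under both scalings are given above. Site calls, 2 in the main setting, numbered 6 with normexp, with the mean of a gene's probes and with the slide as a random block, 4 with a variance trend, 1 without a signal filter or without the fourth lung and the fourth intestinal arrays together, and 0 with only the groups compared and with both scalings to detected probes. Array weights gave 43 site calls and 25 members higher in small intestine, from a weight estimate that stopped before it converged. With the replicate number as a replicate block the day 4 counts stayed at 24 and 3.

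Among values called in the main setting or the alternative, directions turned for Psma6 (-0.011), Psme1 (-0.43) and Psme2 (-0.48) on centring on detected probes' median, and for Psmb7 in blood with quantile normalization and the deposited table (both -0.59). Values called in neither changed sign too, among them, for day 4, Psma4 (-0.24), Psmb1 (-0.20) and Psmb5 (-0.30) on centring on detected probes' median, with Psmb5 also in blood (-0.27) and liver (-0.35), and Psmb7 (0.05), Psmc5 (0.069), Psmd3 (0.14) and Psmd4 (0.22) with normexp. The cause was not tested.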
